A study of Homo sapiens with 5 samples.

Results

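The transcripts described here are 9 noncoding RNA genes in MonoMac6, a human monocytic leukaemia line: MALAT1 and NEAT1, which stay in the nucleus, and the small nucleolar RNA (snoRNA) hosts GAS5, SNHG1, SNHG5, SNHG6, SNHG8, SNHG12 and EPB41L4A-AS1. Members were all probe sets of an Affymetrix array, that is, groups of probes for 1 target, whose annotation names exactly 1 gene and that gene is in this set. This rule, which uses no measured value, found 15 of 54675 probe sets: 12 for MALAT1, 2 for EPB41L4A-AS1 and 1 for GAS5. The other 6 genes have no probe set of their own. A further 20 probe sets name one of the genes together with RNAs encoded inside it (NEAT1 with the microRNA MIR612, the hosts with their snoRNAs), and these are given separately below as loci, with no value assigned to a single gene. The 5 arrays hold 1 sample each of unstimulated cells and of cells kept for 12 h with 100 nM leukotriene B4 (LTB4), leukotriene C4 (LTC4), lipoxin A4 (LXA4) or lipoxin B4 (LXB4), added from a DMSO stock. The labels do not say if DMSO alone was added to the control cells. LTB4 is a dihydroxy acid, LTC4 carries glutathione, and the lipoxins are trihydroxy acids that are positional isomers of each other. With 1 array per group no error could be measured and no test was made, so each difference is one between 2 arrays.

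MALAT1 lies in nuclear speckles, bodies rich in splicing factors, and is very abundant and long-lived. Its 3′ end is made not by polyadenylation but by RNase P, which cuts off a small tRNA-like RNA and leaves an end protected by a triple helix. NEAT1 is the scaffold of paraspeckles, has a short polyadenylated and a long form, and its transcription responds to stress and to innate immune signals. The snoRNA hosts are transcribed to release snoRNAs from their introns; these guide the modification of ribosomal RNA. Many hosts begin with a run of pyrimidines, like ribosomal protein genes, and their spliced RNA is often degraded through nonsense-mediated decay during translation, so its level depends on growth and translation. GAS5 was named for its accumulation in growth-arrested cells, and its spliced RNA can bind the glucocorticoid receptor. EPB41L4A-AS1 is read from the strand opposite to EPB41L4A and hosts a snoRNA.

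The start sites are shown because the snoRNA hosts as a class are known for a pyrimidine run there, while MALAT1 is not a host. Each window holds 30 bases on either side of the boundary at the start annotated by RefSeq (GRCh38.p14), and capitals mark a C within 5 bases of the start, on the gene's own strand, and the C or T bases that follow it, where these come to at least 5 bases in all. Other pyrimidines may come before that C. The last 30 bases of each window are the start of the first exon.
MALAT1, upstream start, chr11:65497708-65497767, plus strand: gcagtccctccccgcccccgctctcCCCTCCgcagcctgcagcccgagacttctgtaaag
MALAT1, downstream start, chr11:65499015-65499074, plus strand: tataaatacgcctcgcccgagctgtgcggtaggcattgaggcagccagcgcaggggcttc
GAS5, chr1:173869016-173869075, minus strand: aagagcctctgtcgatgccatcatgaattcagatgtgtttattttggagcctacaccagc
EPB41L4A-AS1, chr5:112160496-112160555, plus strand: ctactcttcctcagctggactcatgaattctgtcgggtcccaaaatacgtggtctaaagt
SNHG5, chr6:85678704-85678763, minus strand: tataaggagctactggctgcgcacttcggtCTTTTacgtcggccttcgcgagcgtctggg
SNHG12, chr1:28581844-28581903, minus strand: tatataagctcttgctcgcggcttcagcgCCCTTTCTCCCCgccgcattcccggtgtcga
SNHG8, chr4:118278732-118278791, plus strand: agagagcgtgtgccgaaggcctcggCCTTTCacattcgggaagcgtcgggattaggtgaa
SNHG1, chr11:62855856-62855915, minus strand: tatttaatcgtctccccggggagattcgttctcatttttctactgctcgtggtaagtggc
SNHG12 had the longest run, 12 bases from base -1, while SNHG8 had 6 bases from base -5 and SNHG5 had 5 bases from its first base. The 6 bases marked at the upstream start of MALAT1, from base -5, end an unbroken stretch of 11 pyrimidines that begins at base -10. The downstream start of MALAT1 and the annotated starts of SNHG1, GAS5 and EPB41L4A-AS1 had no such run. Of the 8 windows held for 7 of the 9 genes, 4 had a run, against 21.1% of all 35116 windows, 46.5% of 43 windows of protein-coding snoRNA hosts and 79.5% of 44 windows of ribosomal protein genes. Where the C had to follow a purine, a rule added after seeing the data, 2 of the 8 had a run (SNHG8 and SNHG12), against 13.8%, 27.9% and 52.3%. Only these letters and this window were searched. RefSeq may place a start some bases or further away from the one used in these cells. Only the start shown was held for GAS5 and for each other host, so a run at another start would be missed.

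Signals are linear intensities, scaled so that the arrays share a common level, and 48.7 was taken as the floor under which signals were not read. Of the probe sets, 36763 were above it on at least 1 array and are called measured. Monocytic markers were bright: 14 of 16 found were above the floor on all 5 arrays. Of 4 to 8 markers found per list, the T cell list had 1 above the floor on every array, the B cell list 2, the erythroid list 1, the epithelial list 1 and the list of fibroblasts and endothelium 2, of which PECAM1 is also made by monocytes. Control probe sets for 18S ribosomal RNA (rRNA) differed far more between arrays than most genes: the middle one had 186 on the unstimulated array, 365 with LXA4, 913 with LTB4, 1056 with LXB4 and 3073 with LTC4. The 3′, middle and 5′ control probe sets of GAPDH were alike, at 0.75 to 0.78 of the unstimulated array with LXB4.

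MALAT1 read higher on the LTB4 array in all 12 of its probe sets, and higher with LTC4 in 11 and with LXB4 in 9. With LXA4 it was higher in 6 and lower in 6. After quantile normalization 11 were higher with LTB4, 9 with LTC4, 10 with LXB4 and 6 with LXA4. Among the 21648 measured probe sets with a mean signal over 100, as all of MALAT1's have, the shares higher were 55.8% with LTB4, 59.8% with LTC4, 51.7% with LXB4 and 55.1% with LXA4. The median log2 differences of the 12 probe sets were 0.45 with LTB4, 0.59 with LTC4, -0.02 with LXA4 and 0.40 with LXB4, against 0.04, 0.07, 0.03 and 0.01 for all probe sets over 100. The probe sets read 1 RNA on the same arrays, so they are not independent readings of a condition, and 7 of them carry the suffix _x_at, which marks probes that can also bind other transcripts. On the other 5, the medians were 0.43, 0.81, 0.10 and 0.69, in the same order of arrays.

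**Figure D1:**
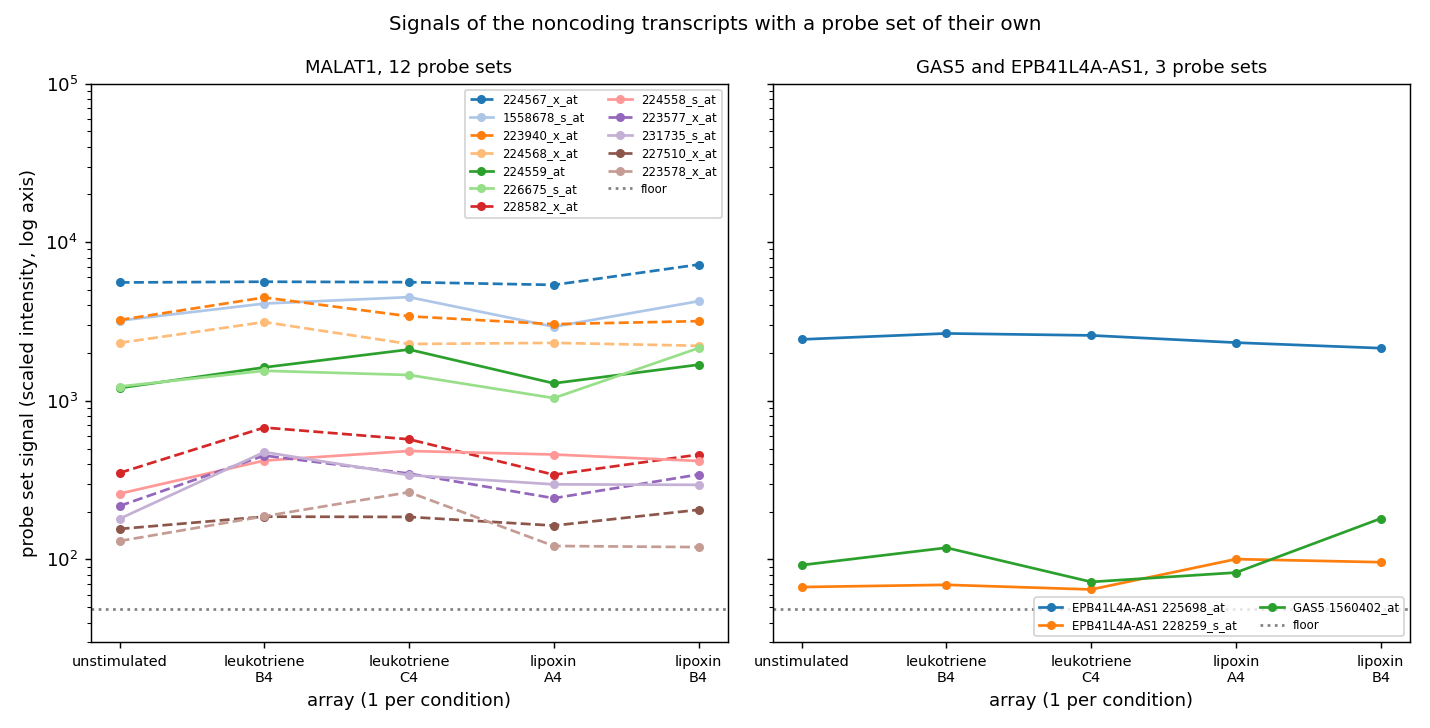
Signals (scaled intensity, log axis) of the 12 MALAT1 probe sets (left) and of the GAS5 and EPB41L4A-AS1 probe sets (right) on each of the 5 arrays, 1 per condition; lines join the values of 1 probe set, dashed for _x_at probe sets, and the dotted line is the floor of 48.7. MALAT1 lies between 120 and 7232, above the floor throughout, and 7 of its 12 lines have their 2 lowest points on the unstimulated and LXA4 arrays.

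At a 2-fold difference, 2 MALAT1 probe sets were higher with LTB4 and 1 with LTC4, while none was with LXA4 or LXB4 and none was 2-fold lower on any array. Over all measured probe sets, 1.03%, 1.47%, 0.827% and 0.745% were 2-fold higher with LTB4, LTC4, LXA4 and LXB4, and 1.86%, 2.06%, 1.89% and 2.37% were 2-fold lower. Probe set 231735_s_at, the widest of the 12, had 180 on the unstimulated array, 475 with LTB4, 340 with LTC4, 297 with LXA4 and 295 with LXB4. The unstimulated array was thus the lowest, and LTB4 stood 2.64-fold above it. Its range over the arrays, 1.40 on the log2 scale, was at percentile 97.2 of all measured probe sets. Probe set 223577_x_at had 217, 452, 348, 243 and 343 in the same order of arrays, with LTB4 highest at 2.08-fold. Probe set 223578_x_at had 131, 187, 265, 122 and 120, so that both leukotrienes were above the unstimulated array and both lipoxins just below it. Its ratio with LTC4 was 2.03, a log2 difference of 1.02, which was 0.95 in the values as deposited and so not 2-fold there.

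The brightest probe sets of MALAT1 differed less. Probe set 224567_x_at had 5576 unstimulated, 5636 with LTB4, 5600 with LTC4, 5382 with LXA4 and 7232 with LXB4. Here LXB4 alone stood apart, at 1.30-fold, while the other 3 stimulated arrays lay within a log2 difference of 0.05 of the unstimulated one. The next, 1558678_s_at, had 3204, 4105, 4506, 2932 and 4249 in that order, and 224559_at had 1204, 1626, 2107, 1290 and 1689. In both, LTC4 was highest, and LXA4 was close to the unstimulated array. Probe sets 223940_x_at (3234, 4484, 3412, 3044 and 3180) and 224568_x_at (2319, 3140, 2282, 2319 and 2225) were instead highest with LTB4, by 1.39-fold and 1.35-fold, and the other 3 stimulated arrays lay within 0.09 of the unstimulated one on the log2 scale. The 12 probe sets therefore did not give 1 pattern: 5 were highest with LTB4, 4 with LTC4 and 3 with LXB4, where 18.8%, 28.9% and 18.7% of probe sets over a signal of 100 were.

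At 1.5-fold, 4 MALAT1 probe sets were higher with LTB4, 6 with LTC4, 2 with LXA4 and 4 with LXB4, and none was lower. The shares of measured probe sets over a signal of 100 that were 1.5-fold higher were 3.28%, 3.6%, 2.62% and 3.42%, and those 1.5-fold lower were 4.04%, 4.76%, 3.67% and 5.54%. Both probe sets that passed with LXA4 also passed on the other 3 stimulated arrays: 231735_s_at and 224558_s_at, which had 260 unstimulated, 420 with LTB4, 483 with LTC4, 459 with LXA4 and 418 with LXB4. In 224558_s_at the 4 stimulated arrays lay together, 1.61-fold to 1.86-fold above the unstimulated one. Probe set 226675_s_at had 1231, 1547, 1456, 1041 and 2151 in the same order, with LXB4 highest and LXA4 lowest. The remaining pair were 228582_x_at, with 351, 679, 572, 342 and 458, and 227510_x_at, with 156, 186, 185, 163 and 206. In both, the unstimulated and LXA4 arrays were the 2 lowest.

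**Figure D2:**
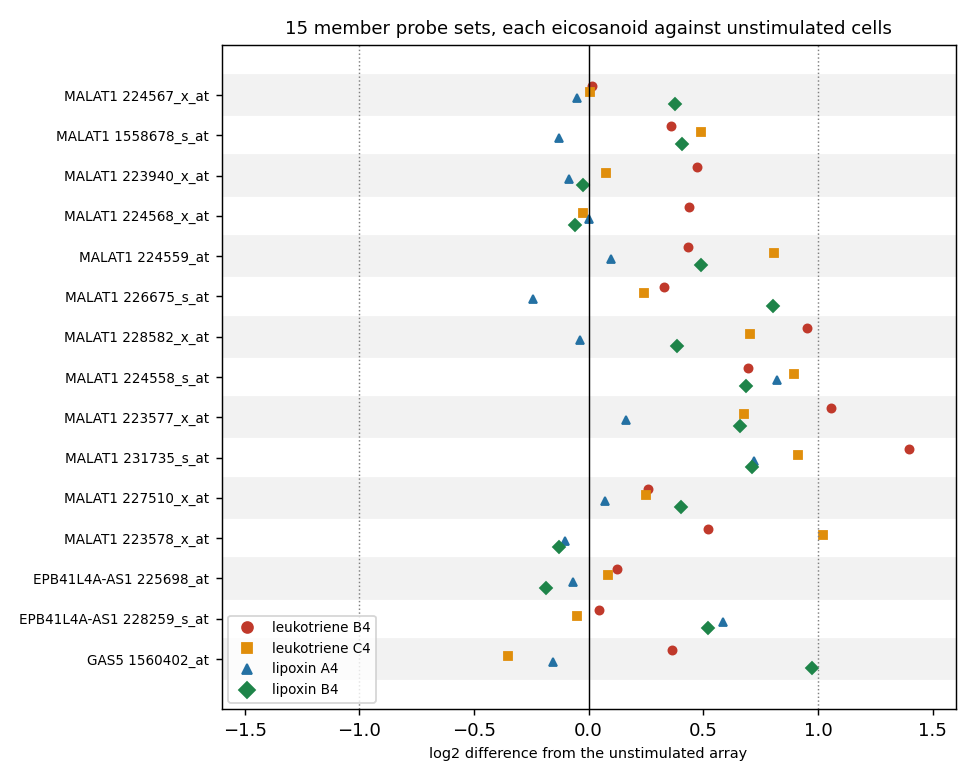
Log2 difference of each of the 15 member probe sets from the unstimulated array (x axis), 1 row per probe set, with a symbol for each eicosanoid; dotted lines mark 2-fold. The MALAT1 rows lie mostly to the right of 0, up to 1.40 with LTB4, while LXA4 lies within 0.24 of 0 in all but 2 of them.

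The order of the arrays in MALAT1 was compared with that of the rRNA controls, after both had been seen. In 7 of 12 MALAT1 probe sets the unstimulated and LXA4 arrays were the 2 lowest, as they are in the middle 18S control, against 13.1% of probe sets over a signal of 100. One of the 12, 224559_at, had all 5 arrays in the order of that control, against 2.05%. The 18S controls were 2.98-fold to 4.90-fold over the unstimulated array with LTB4, 3.41-fold to 16.5-fold with LTC4, 1.63-fold to 1.96-fold with LXA4 and 2.15-fold to 5.66-fold with LXB4. The part that the amount of rRNA in the labelled samples has in the MALAT1 values was not tested.

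**Figure D3:**
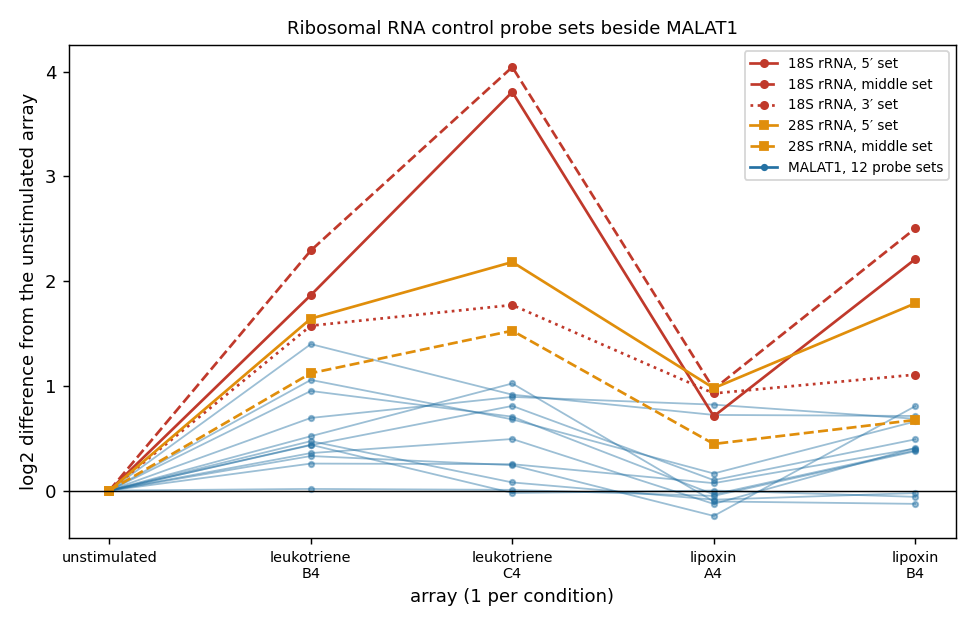
Log2 difference from the unstimulated array (y axis) of the 3 18S and 2 of the 28S rRNA control probe sets and of the 12 MALAT1 probe sets on the 5 arrays, with lines joining the values of 1 probe set. The rRNA controls are lowest on the unstimulated and LXA4 arrays, as are 7 of the 12 MALAT1 probe sets; the controls peak with LTC4, the middle 18S set at 16.5-fold, where the highest MALAT1 probe set is at 2.03-fold.

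EPB41L4A-AS1, the host of SNORA13, hardly differed on its bright probe set. Probe set 225698_at had 2440 on the unstimulated array, 2661 with LTB4, 2585 with LTC4, 2328 with LXA4 and 2149 with LXB4. The leukotriene arrays were slightly above the unstimulated one and the lipoxin arrays slightly below, by log2 differences of 0.12, 0.08, -0.07 and -0.18. The value with LTC4 was -0.02 after quantile normalization. With 223578_x_at and 223940_x_at of MALAT1, it was 1 of 3 among the 15 member probe sets with the 2 classes on opposite sides, against 4.25% of measured probe sets. The range of 0.31 was at percentile 30.2 of measured probe sets. The second probe set, 228259_s_at, was near the floor with 67.0, 69.2, 64.7, 100.4 and 96.1 and was instead higher with LXA4 and LXB4 by 0.58 and 0.52. The 2 probe sets of this gene thus gave no common direction for the lipoxins. Its antisense partner EPB41L4A was as dim, with 50.7, 54.9, 79.6, 37.5 and 56.6.

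GAS5 has 1 probe set of its own, 1560402_at, and it was dim. It had 92.1 unstimulated, 118.5 with LTB4, 72.2 with LTC4, 82.6 with LXA4 and 181 with LXB4. LXB4 was highest at 1.97-fold, a log2 difference of 0.98 that became 1.12 after quantile normalization, and the LTC4 array was lowest at -0.35. The 4 brighter probe sets of the locus, which its annotation shares with 8 snoRNAs, did not repeat this: with LXB4 they lay between -0.15 and 0.20. In the representative probe sets of the 3 genes, the median log2 difference was 0.12 with LTB4, 0.01 with LTC4, -0.07 with LXA4 and 0.38 with LXB4, against 0.00, 0.06, 0.00 and 0.00 for all 15374 measured genes.

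The NEAT1 locus, on chromosome 11 beside MALAT1, differed between its probe sets. All 9 list NEAT1 with MIR612, which lies inside it, and 8 were measured. The brightest, 224565_at, had 1434 unstimulated, 1554 with LTB4, 1362 with LTC4, 1558 with LXA4 and 1371 with LXB4, a range of 0.19 on the log2 scale. Probe set 225239_at had 665, 308, 552, 480 and 259 in that order, and 234989_at had 403, 234, 366, 278 and 154. In both, the unstimulated array was highest, LTC4 next, and LXB4 lowest. Their ratios were 0.46 and 0.58 with LTB4 and 0.39 and 0.38 with LXB4, so 1 probe set of the locus was 2-fold lower with LTB4 and 2 with LXB4, against the shares of 1.86% and 2.37% given above.

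The other NEAT1 locus probe sets did not share these patterns. Probe set 224566_at had 858, 925, 822, 890 and 542 over the same arrays, apart from the others with LXB4 alone at 0.63-fold. Probe set 238320_at had 123, 69.1, 127, 81.2 and 88.4, with LTB4 lowest. Probe set 214657_s_at had 192, 220, 162, 237 and 161, with LXA4 highest. Probe set 239269_at had 89.1, 117 and 75.5 on the unstimulated, LTB4 and LTC4 arrays and 83.6 with LXB4. It was higher with LTB4 by 0.39 on the log2 scale, and under the floor with LXA4 alone, lower there by at least 0.87. The last, 227062_at, was above the floor with LXA4 alone, at 58.8. The median over the 8 was 0.05 with LTB4, -0.11 with LTC4, -0.21 with LXA4 and -0.37 with LXB4. With the floor at the 70th percentile the median with LTB4 was -0.31, and with it at the 30th that with LXA4 was 0.05. None of the 8 had the unstimulated and LXA4 arrays as the 2 lowest, where 10.9% of measured probe sets did. Among 8 probe sets a count of 0 is near that share. Which part of the transcript each probe set reads was not determined here, so the short and long forms of NEAT1 cannot be told apart.

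**Figure D4:**
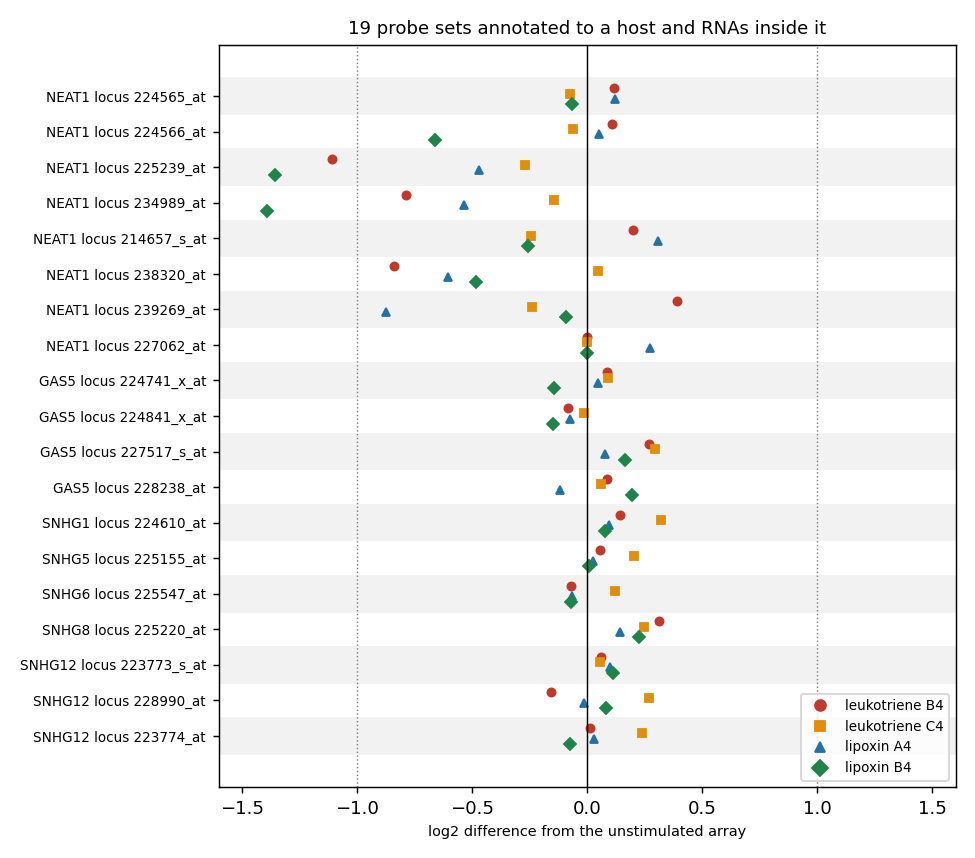
Log2 difference from the unstimulated array (x axis) of the 19 measured probe sets whose annotation lists a host with RNAs inside it, 1 row per probe set and a symbol per eicosanoid; dotted lines mark 2-fold. The snoRNA host loci stay between -0.16 and 0.32, while the NEAT1 locus reaches -1.39.

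The snoRNA host loci were bright, and their log2 ranges over the arrays were 0.11 to 0.43. The median range was 0.29, against 0.40 for measured probe sets over a signal of 100. All 11 of their probe sets were measured, and every co-listed snoRNA lies inside the span of its host. None was 2-fold or 1.5-fold apart on any array, against 2.89%, 3.53%, 2.71% and 3.12% of measured probe sets 2-fold apart with LTB4, LTC4, LXA4 and LXB4. Of those over a signal of 100, as all 11 are, 7.32%, 8.36%, 6.29% and 8.96% were 1.5-fold apart. The SNHG5 locus (SNORD50A and SNORD50B) had 19756 on the unstimulated array, 20534 with LTB4, 22732 with LTC4, 20087 with LXA4 and 19876 with LXB4. The SNHG6 locus (SNORD87) had 15813, 15065, 17210, 15133 and 15080 in the same order, so that in both LTC4 was the one array to stand out, by 0.20 and 0.12 on the log2 scale. The SNHG1 locus, with 8 snoRNAs listed, had 3046, 3359, 3804, 3251 and 3219, again highest with LTC4 at 1.25-fold. The SNHG8 locus (SNORA24) had 2737, 3393, 3247, 3023 and 3199, with all 4 stimulated arrays above the unstimulated one by 1.10-fold to 1.24-fold.

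The remaining host loci had several probe sets each. Those of the GAS5 locus had signals of 6936 to 8181 in 224741_x_at, 6981 to 7724 in 224841_x_at, 1721 to 2109 in 227517_s_at and 707 to 880 in 228238_at, and the widest of these ranges was 0.32 on the log2 scale. The SNHG12 locus (SNORA16A, SNORA44 and SNORA61) ranged from 1121 to 1213 in 223773_s_at, 598 to 804 in 228990_at and 565 to 704 in 223774_at. Over the 11 probe sets, 10 were higher with LTC4, against 50.6% of measured probe sets and 59.8% of those over a signal of 100. All 11 are over 100, so the second share is the one matched to them in signal. The medians over the 11 were 0.06, 0.20, 0.03 and 0.08 with LTB4, LTC4, LXA4 and LXB4. After quantile normalization 8 of 11 were higher with LTC4 and the median was 0.10. LTC4 was the highest array in 7 of the 11, against 28.9% of measured probe sets over a signal of 100. The unstimulated and LXA4 arrays were the 2 lowest in 3 of the 11, against 13.1% of those probe sets. On that array 57.4% of measured genes were higher, and 35 of 36 ribosomal protein genes were.

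Genes related to these transcripts were read as lists, 1 probe set per gene. Other snoRNA host RNAs had 9 of 28 members measured and none 2-fold apart: the median was -0.07 with LTB4, 0.14 with LTC4, -0.06 with LXA4 and -0.05 with LXB4. ZFAS1, the brightest of them, had 12930 unstimulated, 12095 and 14390 with LTB4 and LTC4 and 11842 and 10795 with LXA4 and LXB4, so it too was highest with LTC4. The widest was the dim SNHG4, with 108, 184, 156, 164 and 140, higher on all 4 stimulated arrays, by 0.76 with LTB4; SNHG28 was above the floor on 2 arrays. Protein-coding snoRNA hosts (23 of 45 measured) had medians of -0.03, 0.16, -0.06 and -0.13 and none was 2-fold apart; the largest differences were in PRRC2A (-0.53) and the ribosomal protein gene RPL30 (-0.52), both with LXB4. Of all measured genes, 2.43%, 2.85%, 2.39% and 2.47% were 2-fold apart with LTB4, LTC4, LXA4 and LXB4. Ribosomal protein genes without a listed snoRNA had medians of -0.03, 0.14, -0.09 and -0.40, with 36 of 36 lower with LXB4 and the largest differences in RPS18 (-0.57) and RPL31 (-0.55); after quantile normalization that median was -0.01. Over all measured genes 45.6% were lower with LXB4. The spike-in controls differed there by signal level. The probe sets of cre, with 30215.5 to 43801.5 on the unstimulated array, were all at 0.77 to 0.83 of it with LXB4. Those of bioD were at 0.83 to 1.05, and the dimmer ones of bioB and bioC at 0.86 to 1.125. RPS18 and RPL31 had 39158 and 46397 on the unstimulated array. The part that signal level has in the ribosomal protein values was not tested. The other probe sets of RPL31 gave -0.10 and 0.25 with LXB4, and those of PRRC2A gave -0.38 and 0.01.

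**Figure D5:**
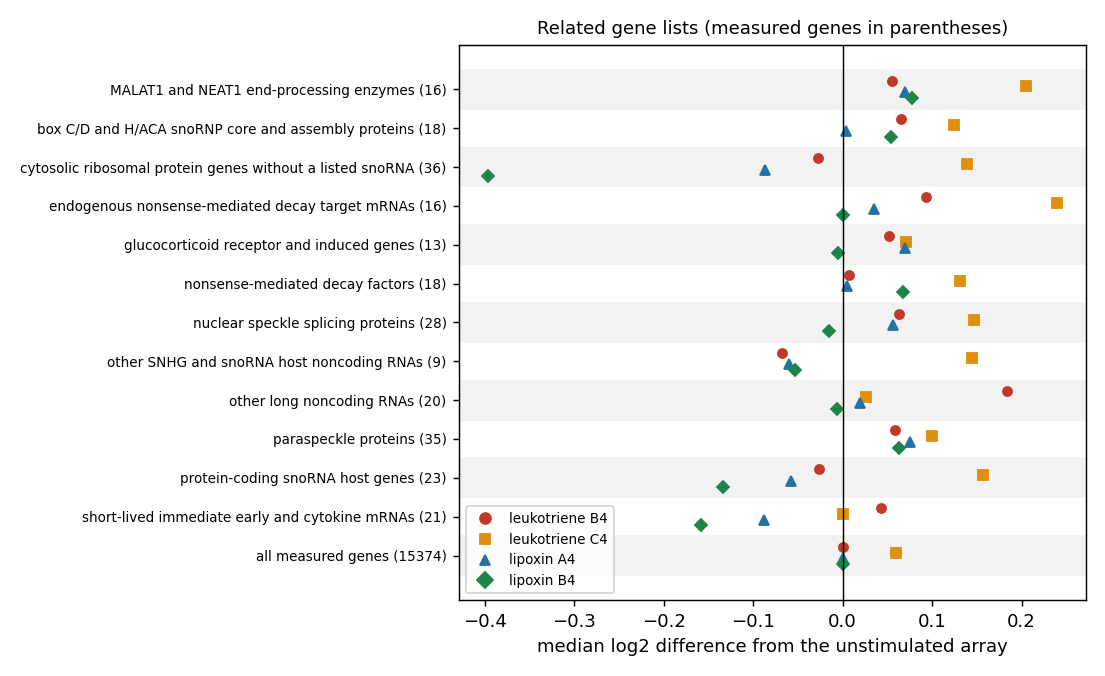
Median log2 difference from the unstimulated array (x axis) for the lists of related genes and for all measured genes, with a symbol per eicosanoid and the number of measured genes in parentheses. Medians of the related lists lie between -0.40 (ribosomal protein genes, LXB4) and 0.24 (decay targets, LTC4).

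The proteins of the nuclear bodies that hold MALAT1 and NEAT1 differed little between arrays. Among paraspeckle proteins, 35 of 37 were measured, with medians of 0.06, 0.10, 0.07 and 0.06; 1 was 2-fold lower with each leukotriene, against 1.72% and 1.65% of measured genes, and none was 2-fold higher. It was ZC3H6, a zinc finger protein, with 236 on the unstimulated array, 100.1 and 107 with the leukotrienes and 239 and 205 with LXA4 and LXB4; its other probe set gave 0.52 and -0.31 with LTB4 and LTC4. None of 28 speckle proteins measured was 2-fold apart, and the medians were 0.06, 0.15, 0.06 and -0.02. SRRM2, a scaffold of nuclear speckles, differed most: its brightest probe set had 3191 unstimulated, 2147, 1895, 2258 and 1878 on the others. Another, 208610_s_at, had 0.00, 0.15, -0.42 and -0.26. The dimmer 1554671_a_at and 216629_at were, like the brightest, lower on each stimulated array. They had -0.09, -0.90, -0.47 and -0.68, and -0.41, -0.88, -0.71 and -0.79, the -0.88 being a bound at the floor. DYRK1A, a kinase of splicing factors, was next, at 0.42 with LTB4. The enzymes that process the ends of MALAT1 and NEAT1 had medians of 0.06, 0.20, 0.07 and 0.08 with none of 16 past 2-fold; DIS3, a nuclease of the exosome, was highest at 0.53 with LXB4, followed by TRNT1, which adds CCA ends to tRNA, at 0.40. With LXB4 the other probe sets of DIS3 lay between -0.25 and 0.49 and those of TRNT1 were at 0.16 and 0.67.

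Decay factors and snoRNP proteins did not pass 2-fold either. The nonsense-mediated decay factors, 18 of 24 measured, had medians of 0.01, 0.13, 0.00 and 0.07. UPF1, the central helicase of this decay, had 1175 on the unstimulated array and 882, 833, 1006 and 855 on the others, while its second probe set lay between -0.18 and 0.05; SMG6, an endonuclease of the same decay, was above the floor with LTC4 alone. Known mRNA targets of the same decay, 16 of 18 measured, had medians of 0.09, 0.24, 0.04 and 0.00, with CHAC1, an enzyme that breaks down glutathione, the widest at 0.80 with LXA4 and ARRDC3 next at 0.61 with LTB4. The core and assembly proteins of snoRNPs, 18 of 20 measured, had medians of 0.07, 0.12, 0.00 and 0.05, and TCOF1, a factor of rRNA gene transcription, was lowest at -0.57 with LXB4, followed by NOPCHAP1 at 0.45 with LTC4. A second probe set of TCOF1, 202385_s_at, had 959 unstimulated and gave -0.79, -0.34, -0.50 and -0.48, so its lowest was LTB4. The dim 244686_at was also lower on each stimulated array. The glucocorticoid receptor and genes it induces had medians of 0.05, 0.07, 0.07 and -0.01 over 13 of 15, with 2 dim genes the widest: DUSP1, a phosphatase of MAP kinases, at -0.79 with LXB4, and IL1R2, the decoy receptor for interleukin 1, above the floor on the unstimulated array alone. The second probe set of DUSP1 had 151 unstimulated and 122 with LTC4, and was under the floor with LTB4, LXA4 and LXB4, lower by at least 1.63. The first gave 0.36 with LTB4 and 0.23 with LXA4, so the 2 did not share a direction on those arrays.

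Short-lived mRNAs and other long noncoding RNAs had single genes past 2-fold. Of 21 short-lived mRNAs measured, 1 was 2-fold higher with LTC4, the chemokine CCL2 (1807 against 769), and 1 with each lipoxin, the dim nuclear receptor NR4A1 (109 and 106 against a signal under the floor, so higher by at least 1.17 and 1.13 on the log2 scale), where 1.2%, 0.702% and 0.507% of genes were. The other 2 probe sets of NR4A1 gave 0.63 and -0.28 with LXA4 and 0.00 and -0.71 with LXB4. The list's medians were 0.04, 0.00, -0.09 and -0.16. Of 20 other long noncoding RNAs, 1 was 2-fold lower with LTC4: FTX, an X-linked regulatory RNA, with 215 unstimulated, 157 and 101 with LTB4 and LTC4, and 138 and 130 with LXA4 and LXB4. Its other probe set, which was dim, went the opposite way on each stimulated array. It went from under the floor to 98.3, 52.0, 67.5 and 94.0 with LTB4, LTC4, LXA4 and LXB4. That list had a median of 0.18 with LTB4, with 14 of 20 members above 0, against 47.4% of all measured genes; NORAD, the brightest, had 7524 and 8983. Its medians on the other arrays were 0.03, 0.02 and -0.01.

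All 6 pairs of eicosanoids were compared at the same dose and time, with no test. LTB4 and LTC4 differed on the MALAT1 probe sets by a median of 0.05 (range -0.50 to 0.48), with 8 of 12 higher with LTB4, against 40.4% of measured probe sets, and none 2-fold apart, against 2.99%. LXA4 was below LXB4 in 8 of 12 by a median of -0.36, where 38.9% of measured probe sets were below, and 226675_s_at was 2-fold lower, as were 0.623% of measured probe sets. In the NEAT1 locus the direction was opposite: LXA4 was above LXB4 in 6 of 8 probe sets, against 45.4% of measured probe sets, by a median of 0.42 (range -0.78 to 0.89). The widest MALAT1 median among the pairs was 0.52, LTB4 over LXA4, with 11 of 12 higher, against 45.1% of measured probe sets. LTC4 was likewise over LXA4 in 11 of 12, by a median of 0.34, against 49.9%. Over LXB4, LTB4 was higher in 7 of 12 and LTC4 in 9, against 47.1% and 52.1%, by medians of 0.20 and 0.09. LTC4 was 2-fold over each lipoxin in 1 MALAT1 probe set. Of measured probe sets, 2.72% and 2.55% were 2-fold apart from LXA4 and LXB4 in either direction. The shares for pairs count probe sets under the floor on both arrays as neither higher nor lower. All 12 MALAT1 probe sets were above the floor on every array, so the shares are not matched to them in signal. These pairs share arrays with each other and with the comparisons above.

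Genes that flank the members did not share a common pattern with them. FRMD8 and LTBP3 are the nearest measured genes on either side of the neighbouring NEAT1 and MALAT1. FRMD8 lay between -0.11 and 0.15, while LTBP3, which binds latent TGF-beta, had 244 unstimulated and 307, 347, 280 and 333 on the others, again with the unstimulated and LXA4 arrays lowest. Beside GAS5, the zinc finger gene ZBTB37 had 359 unstimulated, 294 and 211 with LTB4 and LTC4, and 173 and 146 with LXA4 and LXB4, 2-fold lower with both lipoxins. On the other side of GAS5, GAS5-AS1 was above the floor with LTC4 alone. The genes beside SNHG1, WDR74 and the amino acid transporter subunit SLC3A2, lay between 0.01 and 0.27. Beside the other hosts, SYNCRIP and HTR1E (SNHG5), COPS5 and the pseudogene PTTG3P (SNHG6), TRAM1L1 and PRSS12 (SNHG8) and TRNAU1AP and RAB42 (SNHG12) were measured, and the widest among them was HTR1E, from 89.0 to under the floor with LTC4 and LXB4, lower by at least 0.87. GAS5 was the member whose representative probe set spanned over 1 log2 unit, and among genes over a signal of 500 the nearest to its centred values over the 5 arrays were CISD2, an iron-sulfur protein, the chromatin protein PHF6 and the Golgi protein YIPF4, at root mean square distances of 0.21 each.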

How the data were processed

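Total RNA of MonoMac6 cells was read on 5 arrays, 1 per group, with groups taken from the sample titles. The deposited values are intensity signals, 1 per probe set, made by the authors with GCOS 1.4, per the submitters' processing notes, with no further settings given in the sources used here. Without the top and bottom 2% the mean was 500.1 on every array, so arrays had been scaled before deposit. Of 54675 probe sets, 41097 carry 1 symbol, 1801 several, and 11777 are unnamed here, by the platform annotation; 41043 matched the gene table (GRCh38.p14). Log2 signals were scaled by 1 factor per array to an equal median over the upper 50% of probe sets, 62 controls left out. Factors were 0.98 to 1.03. Values under the 50th percentile of mean log2 signal were set to it. A gene is represented by its brightest measured probe set. Printed signals are scaled and before the floor. Counting was checked on simulated data (Python 3.11.15, pandas 2.3.3). The number of arrays limits precision.

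The members, lists and rules were chosen with earlier results of these data known. Named genes were all member probe sets, list members at least 2-fold apart or else the 2 widest, the nearest measured gene on each side, and for members spanning 1 log2 unit the 3 genes nearest by root mean square distance. Alternatives were quantile normalization, values as deposited, floors at the 30th and 70th percentiles, the mean over probe sets, and 1.5-fold.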

Additional observations from a re-analysis of the deposited data

Results flagged for a closer look

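In 3 of the 15 member probe sets both leukotriene arrays lay above the unstimulated array and both lipoxin arrays below it; 4.25% of measured probe sets were split this way or the reverse. The difference between the classes was not tested. For MALAT1 223578_x_at the gap between the nearest leukotriene and lipoxin arrays was 0.62 on the log2 scale, for MALAT1 223940_x_at it was 0.10, and for EPB41L4A-AS1 225698_at it was 0.15. After quantile normalization 223578_x_at gave 0.01 and 0.02 with LXA4 and LXB4.

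Of the 6 rRNA control probe sets, which are set beside MALAT1 above, 5 were above the unstimulated array on all 4 stimulated arrays. The 3′ probe set of 28S, near the floor, was higher on 3 and under the floor with LXB4. The highest ratio, in each case with LTC4, was 3.41 for the 3′, 16.5 for the middle and 14.0 for the 5′ probe set of 18S, and 2.88 for the middle and 4.54 for the 5′ probe set of 28S.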

How the results depend on the processing

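No paired analysis was possible because each group holds 1 array. Values were held to have moved when they differed by at least 0.26 on the log2 scale, the SD between stimulated arrays over all measured probe sets, and counts when they differed by over 1.5 times. Of the recomputed main values and counts 626 stayed within this and 54 did not, and of differences of single probe sets 507 did and 9 did not; no difference past 2-fold changed sign, while 41 recomputed main values and 24 differences of single probe sets did, none of them over 0.21 in size before. For MALAT1 the median ranged from 0.41 to 0.45 with LTB4 and from 0.48 to 0.81 with LTC4. With LXA4 it ranged from -0.05 to 0.10 and with LXB4 from 0.38 to 0.69. The upper ends 0.81, 0.10 and 0.69 were without _x_at probe sets, a choice made after seeing the data. As the mean of its probe sets, MALAT1 had 0.58 and 0.51 with LTB4 and LTC4, and EPB41L4A-AS1 had 0.26 and 0.17 with LXA4 and LXB4. At 1.5-fold the member probe sets counted were 4, 6, 2 and 5 with LTB4, LTC4, LXA4 and LXB4. At 2-fold, with the floor at the 70th percentile, a signal of 243, they were 0 and 0 with LTB4 and LTC4, and the median over member genes with LXB4 was 0.10, since GAS5 was no longer measured. The 2-fold count with LTC4 was 0 in the values as deposited, and with LXB4 it was 1 after quantile normalization and 2 with the probe sets of several symbols, added after seeing the data. For the loci, recomputed after seeing the data, the NEAT1 medians were -0.31 with LTB4 and -0.70 with LXB4 at the 70th percentile and 0.053 with LXA4 at the 30th. Its probe sets higher were 2 with LTB4, 0 with LTC4 and 2 with LXA4 at the 70th percentile, 0 with LTC4 in the values as deposited and 1 with LXB4 after quantile normalization. The median of ribosomal protein genes with LXB4 was -0.012 after quantile normalization. The list counts past 2-fold moved most with the floor at the 30th percentile, a signal of 17.4, where dim genes enter. For decay targets they were 1 on each array; for glucocorticoid genes 3, 3, 2 and 1; for other long noncoding RNAs 4, 7, 3 and 3; for other snoRNA host RNAs 1 and 2 with the leukotrienes and 2 with LXB4; for protein-coding hosts 1 with LXB4; and for short-lived mRNAs 1 with LTB4 and 2 with each lipoxin. With the floor at the 70th percentile, and with the mean of probe sets, the counts of 1 for paraspeckle proteins with each leukotriene, for other long noncoding RNAs with LTC4 and for short-lived mRNAs with each lipoxin became 0, and with the mean of probe sets the glucocorticoid genes had 1 with LXB4. The cause was not tested. Signals near the floor limit GAS5 and the second EPB41L4A-AS1 probe set.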
